A study of Mus musculus with 2 samples.

Results

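The 5 kainate receptor subunit genes, Grik1 to Grik5, and the 2 genes of their Neto partners, Neto1 and Neto2, were measured in mouse hippocampus. The 7 genes were picked out by their symbols, with earlier results of these data known. They make up 7 of the 55536 annotated genes and 40 of the 141862 annotated transcripts in the deposited tables. Total RNA came from hippocampus, labelled as a layer of that structure, of female B6CASTF1/J mice aged 25 days, a strain that is the F1 hybrid of C57BL/6 with the CAST strain. The mice form a single group with 2 biological replicates and carry no other genotype or treatment in the labels. Both libraries name the same donor entry beside separate biosamples, so the spread between them may be partly technical. The starting amount was 300 ng of RNA per library, and ERCC spike-ins were added. The 7 genes received 26974 of 34919989 expected counts in replicate 1 and 30007 of 41206890 in replicate 2.

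Kainate receptors are ion channels opened by glutamate and built from 4 subunits. GluK1, GluK2 and GluK3, encoded by Grik1, Grik2 and Grik3, can form working channels by themselves, whereas GluK4 and GluK5, from Grik4 and Grik5, bind kainate with high affinity and reach the surface only together with members of the other set. Neto1 and Neto2 are membrane proteins with extracellular CUB domains that join the receptor and slow its closing. In hippocampus these receptors are best known from the mossy fibre synapses of CA3 pyramidal neurons and from interneurons.

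Levels are in TPM, a unit relative to the library's total that allows for transcript length, and are those of the deposited gene tables, called the first quantification here, unless the second is named. Markers of CA1, CA3 and dentate granule neurons and of interneurons were all present, the lowest being the CA3 marker Iyd at 4.48 and 3.85 TPM in replicates 1 and 2. The cerebellar granule cell marker Gabra6 was near 0, at 0.05 and 0.17 TPM. The choroid plexus gene Ttr stood at 23.5 and 55.1 TPM, and Prkcd, a thalamic marker, at 17.5 and 11.1. Their part in the levels of the kainate receptor genes was not tested. In bulk tissue, fewer cells of a type and less RNA per cell cannot be told apart.

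Grik5 was the highest of the 7 genes, and all 7 were detected in both libraries over a range from about 5 to over 100 TPM. Grik5 stood at 114.20 TPM in replicate 1 and 91.28 in replicate 2, a mean of 102.74 ± 16.2 (SD, n = 2). Neto1 followed at 72.76 and 67.61 TPM, and Grik2 at 38.31 and 34.67. Grik4 was at 24.51 and 23.16 TPM, and Neto2 at 19.58 and 19.04. The 2 lowest genes were Grik3, at 9.11 and 9.12 TPM, and Grik1, at 6.09 and 5.24. In this order every library of a gene lay above every library of the next by more than the larger of their SDs, for all 6 neighbouring pairs. Among the 12681 protein-coding genes with at least 1 TPM in both libraries, Grik5 lay at the 93.8th percentile of mean level and Grik1 at the 23.3rd.

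The second deposited quantification gave the same order, with 1 pair of neighbours no longer set apart. Neto1 stood there at 65.8 and 70.6 TPM and Grik2 at 64.8 and 61.4, a smallest gap of 1.01 TPM against an SD of 3.38. Levels in that table were generally higher: over 12648 protein-coding genes the median ratio of the second to the first quantification was 1.63, with 5% of genes below 1.29 and 5% above 2.38. For 6 members the ratio lay near that shift, with values from 1.49 for Grik5 to 1.73 for Grik2. For Neto1 it was 0.971, and its transcripts are described below.

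**Figure D1:**
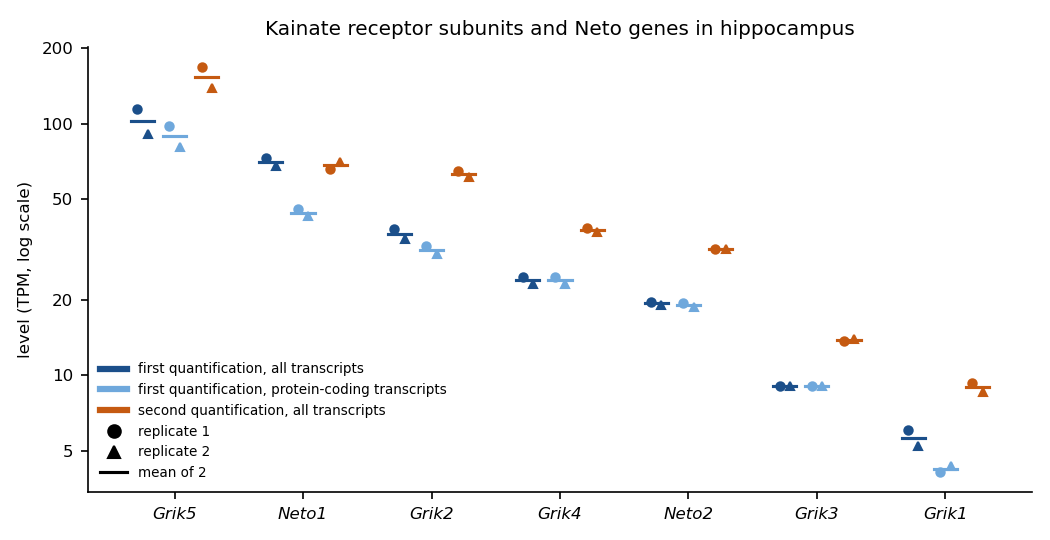
Level of each gene in TPM on a log axis, by quantification; circles are replicate 1, triangles replicate 2 and bars their mean. Grik5 is highest and Grik1 lowest in every set, and the levels of Neto1 in the second quantification (65.8 and 70.6 TPM) lie beside those of Grik2 (64.8 and 61.4 TPM).

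The 5 kainate receptor subunit genes together reached 192 TPM in replicate 1 and 163 in replicate 2. This was 13.3% and 13.5% of the summed TPM of the 17 ionotropic glutamate receptor genes analysed here, 13.4 ± 0.154% (SD, n = 2). The AMPA receptor genes, which carry most fast excitatory transmission, held 47.1 ± 1.99% and the NMDA receptor genes, whose channels need glutamate and a co-agonist, 37.8 ± 2.40%. The delta receptor gene Grid1 held 1.63 ± 0.254%. Grik5 was lower in both libraries than the highest AMPA gene, Gria1, at 293 and 273 TPM, and the highest NMDA gene, Grin1, at 204 and 165. It was above Grid1, at 20.97 and 21.89 TPM. By expected counts, which are not corrected for length, the kainate share was 8.17% and 8.48%. On that scale the order of the 2 largest families was reversed. NMDA receptor genes held 54.1% and 51.2%, and AMPA receptor genes 36.4% and 38.8%.

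**Figure D2:**
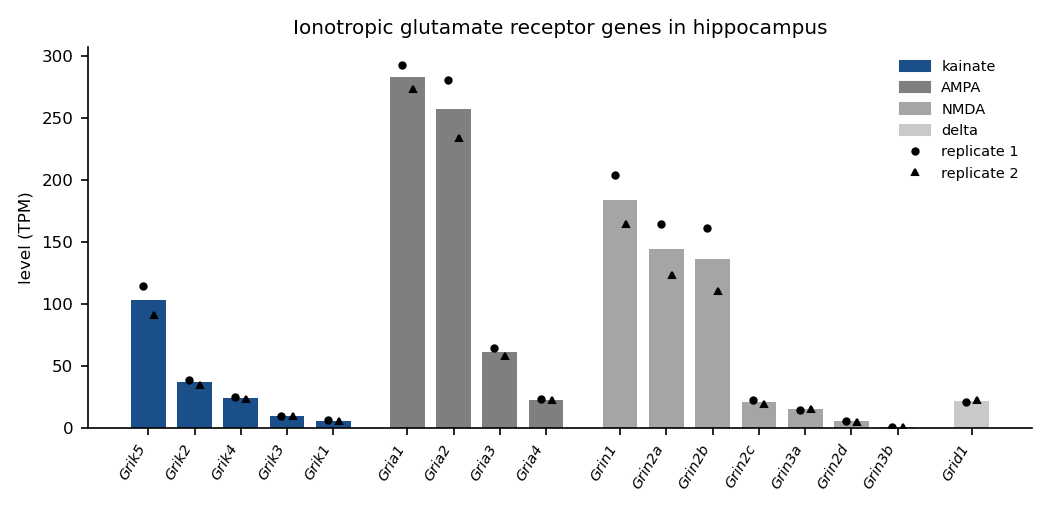
Level in TPM of each ionotropic glutamate receptor gene analysed here, grouped by family; bars are the mean of the 2 libraries, circles replicate 1 and triangles replicate 2. Grik5 (114.20 and 91.28 TPM) is the highest kainate gene and lies below Grin1, Grin2a and Grin2b in each library, and the other 4 kainate genes lie below 40 TPM.

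Among the kainate subunits the high-affinity pair outweighed the other 3 genes. Grik4 and Grik5 together had 2.59 and 2.33 times the TPM of Grik1, Grik2 and Grik3 together, and 2.34 and 2.09 times in the second quantification. Grik5 alone made up 59.4% and 55.8% of kainate subunit TPM. Grik2 made up 19.9% and 21.2% and was the main subunit RNA of the set able to form channels alone. Grik4 held 12.8% and 14.2%, Grik3 4.74% and 5.58%, and Grik1 3.17% and 3.21%. Relative to the 5 subunit genes, Neto1 and Neto2 together reached 0.480 and 0.530 of their TPM. That proportion was 0.332 and 0.395 in the second quantification.

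The coding exons of these genes follow 2 patterns of structure. Grik1, Grik2 and Grik3 each have 16 coding exons in the transcripts compared, of which 12 or 13 are equal in length and order between any 2 of them, and 70.8 to 72.2% of aligned coding bases are identical. Grik4 and Grik5 each have 19 coding exons, 16 of them of equal length, with 71.3% identity. Between the 2 sets, 2 or 3 exons match in length and identity is 56.6 to 61.2%. The longest identical run between any 2 subunits joins the 2 sets: 38 bases shared by Grik3 and Grik5, capitals below. It is shown as the longest coding stretch whose letters do not tell 2 subunit genes apart. Whether any read was shared between genes was not examined.
Grik3-201: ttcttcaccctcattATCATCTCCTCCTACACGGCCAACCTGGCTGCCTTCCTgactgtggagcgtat
Grik5-201: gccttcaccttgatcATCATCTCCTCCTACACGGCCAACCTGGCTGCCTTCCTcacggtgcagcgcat

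Every other pair of subunit genes shares shorter identical runs, down to 13 bases between Grik2 and Grik4. Letters here and below are those of the mm10 reference, and alleles of the CAST genome were not examined.

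Grik1 (ENSMUSG00000022935.16, mm10 chromosome 16, 87895900 to 88290265, minus strand) encodes GluK1, which is known from hippocampal interneurons. It had 465 and 522 expected counts in replicates 1 and 2, the fewest of the 7 genes, spread over 11 annotated transcripts. Its variants differ at an amino-terminal cassette of 45 bases, at a carboxy-terminal cassette of 87 bases and at the last coding exon. Each is shown with 15 flanking bases of its transcript in lower case, because the transcript shares that follow are told apart by these stretches.
Grik1 amino-terminal cassette: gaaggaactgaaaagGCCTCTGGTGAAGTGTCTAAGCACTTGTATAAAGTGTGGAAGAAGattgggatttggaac
Grik1 carboxy-terminal cassette: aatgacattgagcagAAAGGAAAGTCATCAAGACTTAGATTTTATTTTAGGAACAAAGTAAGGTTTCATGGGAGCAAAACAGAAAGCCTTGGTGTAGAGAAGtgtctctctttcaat
Grik1-201 last coding exon: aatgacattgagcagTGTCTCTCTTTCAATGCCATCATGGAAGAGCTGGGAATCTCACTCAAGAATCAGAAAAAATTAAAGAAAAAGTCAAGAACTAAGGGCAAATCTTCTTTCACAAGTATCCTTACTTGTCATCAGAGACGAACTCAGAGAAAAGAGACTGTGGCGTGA
Grik1-206 last coding exon: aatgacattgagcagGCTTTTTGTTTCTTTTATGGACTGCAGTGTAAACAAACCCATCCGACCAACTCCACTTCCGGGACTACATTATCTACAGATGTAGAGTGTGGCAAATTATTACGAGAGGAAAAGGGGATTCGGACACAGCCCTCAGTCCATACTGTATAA

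The cassettes lie at chr16:87955289-87955333 and chr16:87896809-87896895, and the coding ends, stop codon included, at chr16:87896196-87896351 and chr16:87912720-87912869, all on the minus strand. Protein-coding transcripts without the amino-terminal cassette held 65.9% and 80.5% of Grik1 TPM in replicates 1 and 2. Those with it held 1.91% and 3.10%, or 6.82% and 9.33% in the second quantification. The form without the cassette was thus the main one among coding transcripts in both tables. A retained-intron transcript also carries the cassette. With it included, the cassette share was 10.9% and 7.93%, or 16.0% and 11.9% in the second quantification. The carboxy-terminal choice was less certain. Grik1-201, which ends without the 87-base cassette, led with 48.8% and 54.7%, and Grik1-202, which carries it, held 12.7% and 17.7%. In the second quantification they were close to each other, Grik1-201 at 28.1% and 35.1% and Grik1-202 at 29.7% and 30.1%. Grik1-206, with the alternative last exon, held 4.48% and 8.07%, and 12.2% and 11.7% in the second table. The expected counts behind these shares were few, 66.2 and 99.1 for Grik1-202 and 22.5 and 43.6 for Grik1-206. The authors' credibility interval for Grik1-202 ran from 0.128 to 1.52 TPM in replicate 1. Retained-intron transcripts, which keep an intron and code for no protein, held 32.2% of Grik1 TPM in replicate 1 and 16.4% in replicate 2. Grik1-204, a 1394-base transcript of this class, held 11.9% and 5.84%.

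Grik2 (ENSMUSG00000056073.16, mm10 chromosome 10, 49094833 to 49788766, minus strand) encodes GluK2, the main channel-forming kainate subunit of principal neurons. At 694 kb it spans more of the genome than 99.1% of the 12681 protein-coding genes compared, and it was the only member with no transcript holding 50% of its TPM. Its coding variants end mainly in a long tail, in a short tail, or early in an exon of their own. These 3 coding ends, with stop codons, are shown because no end held most of the gene's TPM. A further coding end, that of Grik2-205, held 0.51% of TPM in replicate 1 and 0 in replicate 2.
Grik2 long tail: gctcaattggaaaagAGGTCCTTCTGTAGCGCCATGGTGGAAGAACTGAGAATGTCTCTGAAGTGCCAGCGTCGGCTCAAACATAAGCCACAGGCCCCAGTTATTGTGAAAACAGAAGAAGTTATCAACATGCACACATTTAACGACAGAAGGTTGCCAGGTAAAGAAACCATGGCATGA
Grik2 short tail: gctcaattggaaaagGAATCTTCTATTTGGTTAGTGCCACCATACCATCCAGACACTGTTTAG
Grik2 early end: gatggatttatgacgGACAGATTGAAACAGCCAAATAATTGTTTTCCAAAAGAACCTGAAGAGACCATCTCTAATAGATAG

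Capitals mark the last coding exon, at chr10:49101108-49101272, chr10:49105018-49105065 and chr10:49496095-49496160 in that order, minus strand. The 15 bases before the long and the short tail are the same, the end of their shared exon. Long-tail transcripts, Grik2-202 and Grik2-207, summed to 10.8 TPM in replicate 1 and 12.1 in replicate 2. Short-tail transcripts, led by Grik2-204, summed to 11.7 and 8.75 TPM, and Grik2-210, with the early end, stood at 10.04 and 7.55. The long-tail and short-tail values overlapped between libraries. As shares of the gene, the long tail held 28.2% and 34.9%, the short tail 30.7% and 25.2% and the early end 26.2% and 21.8%. The second quantification gave 25.2% and 29.0%, 29.3% and 27.2%, and 22.4% and 17.2%. In both tables the summed long-tail share was higher in replicate 2 and the short-tail and early-end shares were lower. Single transcripts did not all follow. Grik2-204 held 24.1% and 24.4%, and 19.6% and 23.9% in the second quantification. The short-tail fall lay mainly in a transcript of 2610 bases, at 2.31 and 0.30 TPM. Its credibility interval in replicate 1 ran from 0.000389 to 5.72 TPM. Of the long-tail transcripts, Grik2-202 went from 17.3% to 25.1% and Grik2-207 from 10.9% to 9.83%. By expected counts, which are not corrected for length, the long tail led in both libraries, with 46.8% and 53.6%, against 24.3% and 21.2% for the short tail. Its transcripts are 3992 bases (Grik2-202) and 9427 bases (Grik2-207) long. Grik2-210 has a coding part of 1014 bases, against 2724 in the long-tail transcripts, and had 480 and 450 expected counts.

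Grik2-203, a retained-intron transcript, held 11.3% and 9.58% of Grik2 TPM. Grik2-206, an incomplete model of 539 bases, held 0.08% and 5.44%, and 9.40% and 13.0% in the second quantification, on at most 35.3 counts in any library. These shares rest on few counts. Within Grik2 lie 6 annotated genes on the same strand, of the classes TEC (models awaiting experimental testing) and sense intronic. All 6 had lower TPM in replicate 2, from 0.97 to 0.45 for Gm47017 and from 1.23 to 0.56 for Gm47022. They had 10 to 76 counts in replicate 1, below the minimum used for ratios. Over the whole series 169 of 174 TEC genes with at least 200 counts were lower in replicate 2, with a median ratio of 0.552. Grik2 itself had a ratio of 0.905.

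Grik3 (ENSMUSG00000001985.9, mm10 chromosome 4, 125490700 to 125714173, plus strand) encodes GluK3, a subunit that responds to glutamate only at high concentration. It has a single annotated transcript of 8973 bases, with 1944 and 2432 expected counts. In deposited TPM its level differed least of the members between the libraries, at 9.11 and 9.12. Under the other scalings described below it was not always the least different. A ferritin light chain pseudogene, Ftl2-ps, lies within Grik3 on the same strand, at 5.73 and 7.55 TPM. Grik3 had 13.75 and 13.96 TPM in the second quantification.

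Grik4 (ENSMUSG00000032017.14, mm10 chromosome 9, 42518135 to 42944493, minus strand) encodes GluK4, known from CA3 pyramidal neurons. Its 2 transcripts have the same coding length of 2868 bases and start 135794 bases apart. Grik4-201, from the downstream start, held 72.1% and 72.7% of the gene's TPM, and Grik4-202, from the upstream start and 5887 bases long, 27.9% and 27.3%. The libraries thus differed by less than 1 percentage point. The second quantification gave Grik4-201 75.8% and 77.4%.

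Grik5 (ENSMUSG00000003378.9, mm10 chromosome 7, 25009849 to 25072346, minus strand) encodes GluK5, the high-affinity subunit most often joined with GluK2. It is the shortest of the 7 genes at 62.5 kb and had the most expected counts, 9206 and 9413. Its single protein-coding transcript, Grik5-201, held 85.4% and 88.5% of its TPM. Another transcript, Grik5-207, carries an extra exon of 244 bases and is annotated as a target of nonsense-mediated decay, the pathway that removes RNA with an early stop codon. The part of this exon up to its stop codon is shown because the 2 quantifications gave it very different shares.
Grik5-207 extra exon to the stop codon: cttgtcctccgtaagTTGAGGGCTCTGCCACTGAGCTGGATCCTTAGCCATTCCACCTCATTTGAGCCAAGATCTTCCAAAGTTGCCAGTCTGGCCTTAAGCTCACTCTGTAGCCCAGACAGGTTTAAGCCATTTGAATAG

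Capitals mark the 126 bases at chr7:25061214-25061339, minus strand, and the lower-case letters the end of the exon before. Grik5-207 held 2.20% and 1.57% of Grik5 TPM in replicates 1 and 2, on 240 and 170 expected counts. In the second quantification it held 15.7% and 10.4%, on 1769.5 and 1175.4 estimated counts, and Grik5-201 held 71.1% and 79.1%. In both tables the share of Grik5-207 was lower in replicate 2. The 3 retained-intron transcripts of Grik5 together held 7.67% and 5.49%.

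Neto2 (ENSMUSG00000036902.11, mm10 chromosome 8, 85636588 to 85700924, minus strand) encodes an auxiliary subunit that also binds the potassium-chloride transporter KCC2. Its TPM was assigned mainly to 2 transcripts whose annotated starts lie 9951 bases apart. Use of the starts themselves was not measured, since the transcripts also differ elsewhere. Neto2-201, from the downstream start, stood at 10.46 and 9.61 TPM, and Neto2-205, from the upstream start, at 8.88 and 9.0. Neto2-205 also has an exon that is 21 bases longer at its 3′ side, in capitals here.
Neto2-205 exon extension: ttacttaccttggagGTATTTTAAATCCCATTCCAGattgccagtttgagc

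The extension lies at chr8:85663387-85663407, minus strand. Downstream-start transcripts held 54.6% and 52.7% of Neto2 TPM in the first quantification, and 45.4% and 47.8% in the second. The leading transcript therefore differed between the tables, Neto2-201 in the first at 52.0 ± 2.08% and Neto2-205 in the second at 50.6 ± 0.967%. By expected counts the downstream-start transcripts held 70.1% and 68.2%, Neto2-201 being 5610 bases long and Neto2-205 2932. RefSeq (GRCm38.p6) lists a promoter at the upstream start and another at the start of Neto2-202, just before that of Neto2-201. The 250 bases before each are shown because transcripts with either start were assigned RNA, with CG dinucleotides in capitals.
Neto2 upstream start: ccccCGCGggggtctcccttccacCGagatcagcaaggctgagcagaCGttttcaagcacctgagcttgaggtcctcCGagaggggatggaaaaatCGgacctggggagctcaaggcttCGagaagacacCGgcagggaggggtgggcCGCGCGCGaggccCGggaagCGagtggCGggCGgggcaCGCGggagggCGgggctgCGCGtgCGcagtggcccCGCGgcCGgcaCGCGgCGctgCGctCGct
Neto2 downstream start: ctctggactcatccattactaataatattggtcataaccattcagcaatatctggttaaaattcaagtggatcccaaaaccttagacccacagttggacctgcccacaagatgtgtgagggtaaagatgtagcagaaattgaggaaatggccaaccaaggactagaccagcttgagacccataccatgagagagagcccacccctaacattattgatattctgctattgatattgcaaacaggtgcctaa

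These are chr8:85700925-85701174 and chr8:85691010-85691259, minus strand. The upstream window held 30 CG dinucleotides, as many as or more than 94.8% of the 32851 RefSeq mouse promoters counted the same way, whose median was 6. The downstream window held 0, as did 7.87% of promoters. GC content was 72% upstream and 42.4% downstream. The pair of windows is a description of letters only. Promoter entries were found for 5 of the 7 genes.

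The TPM of the other auxiliary gene rested in part on a short transcript. Neto1 (ENSMUSG00000050321.3, mm10 chromosome 18, 86394952 to 86506718, plus strand) encodes a protein that joins kainate receptors at mossy fibre synapses and also binds NMDA receptors. It had 7647 and 8775 expected counts. Neto1-201, the full-length coding transcript of 8352 bases, received 96.4% and 96.3% of those counts but 51.1% and 50.4% of the TPM, at 37.1 and 34.1 TPM. Neto1-203, a transcript of 384 bases annotated as non-coding, received 186 and 211 counts. With an effective length of 285 bases these became 27.1 and 24.6 TPM, or 37.3% and 36.5% of the gene. The authors' credibility intervals for it were 20.6 to 32.4 and 19.2 to 29.4 TPM. In the second quantification Neto1-203 was listed at 0 in both libraries. Neto1-202, an incomplete model of 527 bases, held 11.6% and 13.1%, and 12.6% and 22.9% in the second table.

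All 384 bases of Neto1-203, which has 4 exons, lie in exons of Neto1-201, which has 11. Just before its last exon Neto1-203 skips 3 exons of Neto1-201. Summed over protein-coding transcripts alone, Neto1 was at 45.6 and 43.0 TPM, still between Grik5 at 97.6 and 80.8 and Grik2 at 32.8 and 30.3. Neto1-201 alone, at 37.1 and 34.1 TPM, lay beside the whole of Grik2, at 38.3 and 34.7. Neto1 exceeded Neto2 by 3.72 and 3.55 times in the first quantification and 2.08 and 2.21 times in the second, so its direction held in both. An annotated antisense gene within Neto1 had 1 and 0 counts.

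**Figure D3:**
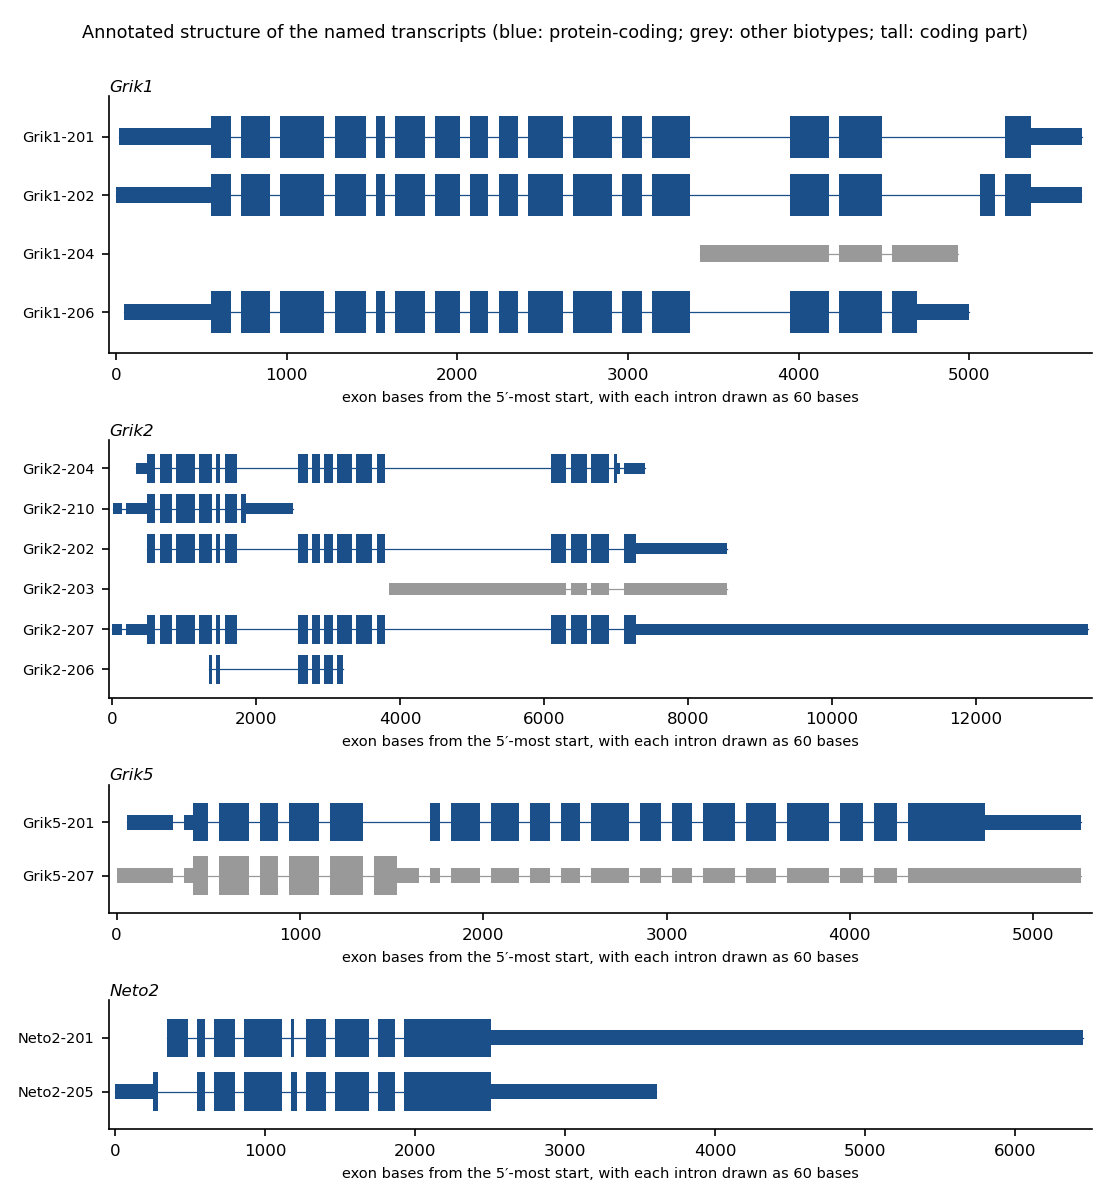
Annotated transcripts of Grik1, Grik2, Grik5 and Neto2 that the account names; blue is protein-coding, grey other classes, tall boxes the coding part, and exon widths are to scale along the x axis in bases with each intron drawn as 60 bases. The 87-base exon of Grik1-202, the early end of Grik2-210, the 244-base extra exon of Grik5-207 and the separate first exons of Neto2 are visible.

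**Figure D4:**
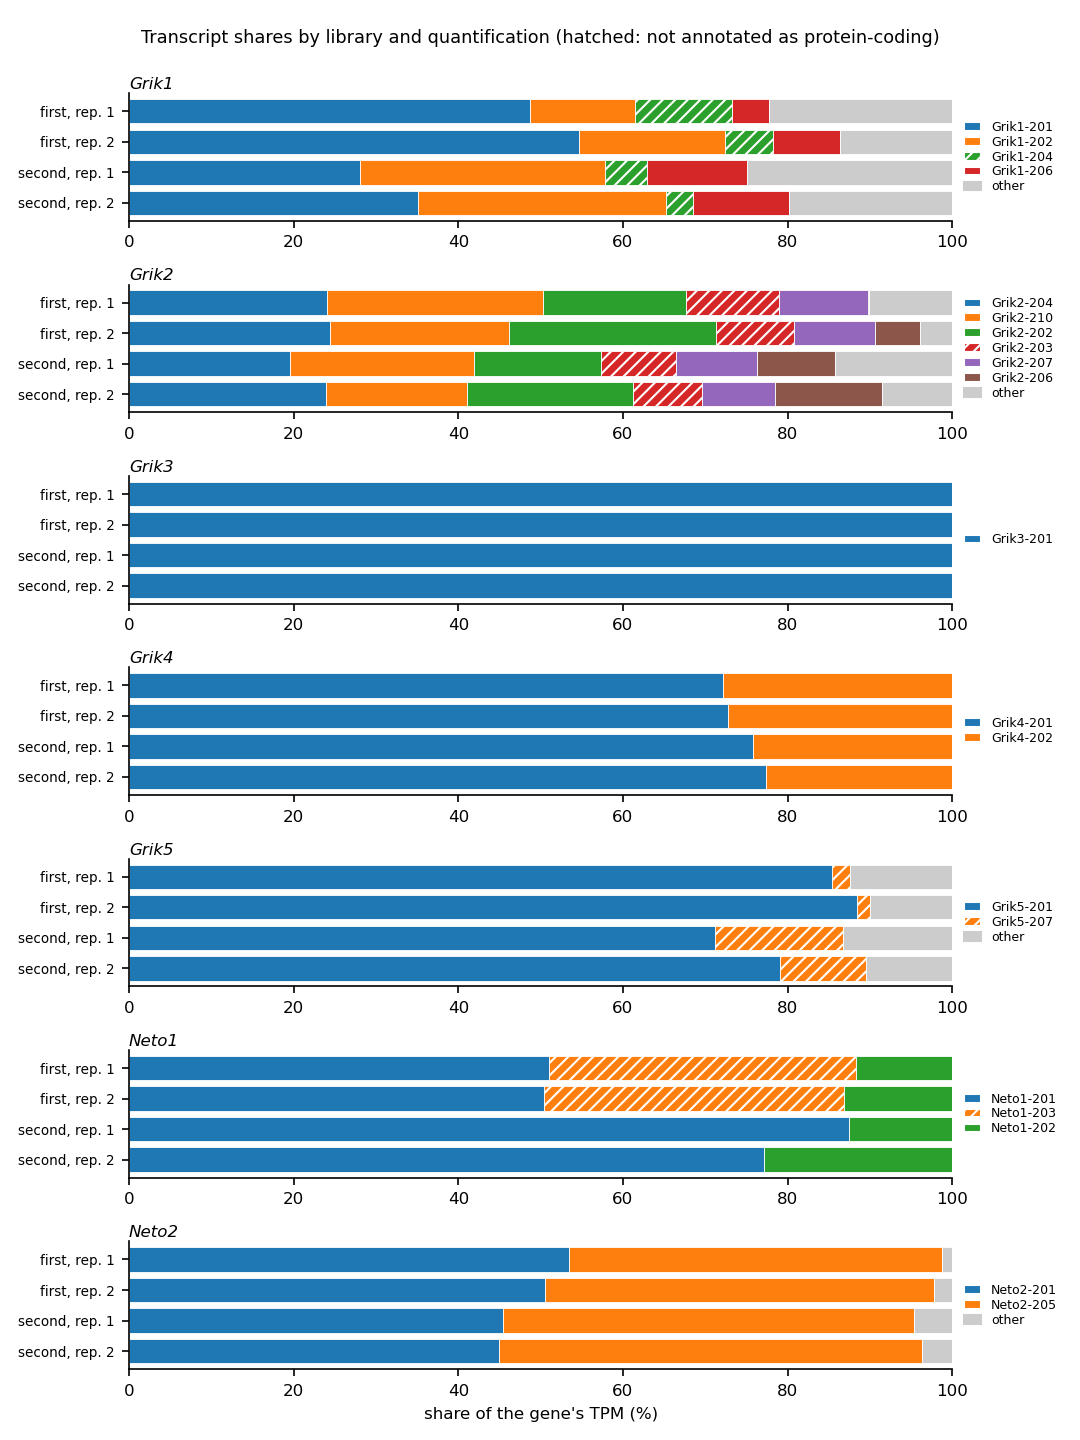
Share of each gene's TPM, in percent, held by its named transcripts, for each library in the first and the second quantification; hatching marks transcripts not annotated as protein-coding and grey the remaining transcripts. Grik4 bars differ little between rows, whereas Grik1-202, Grik5-207 and Neto1-203 change between quantifications, Neto1-203 from 37.3% and 36.5% to 0.

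Across the 40 transcripts, 4 had 0 counts in both libraries of the first quantification. The leading transcript held at least 50% of TPM for 6 of the 7 genes, Grik2 being the exception, and for 5 in the second quantification, where Grik1-201 reached 31.6%. Mean shares differed by more than 10 percentage points between the quantifications for 6 transcripts: Grik1-201, Grik1-202, Grik5-201, Grik5-207, Neto1-201 and Neto1-203. Grik3 and Grik4 had no transcript outside the protein-coding class.

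For the other 5 genes, the share of TPM outside protein-coding transcripts was lower in replicate 2 for 4. It went from 32.2% to 16.4% for Grik1, from 14.4% to 12.6% for Grik2, from 14.6% to 11.5% for Grik5 and from 37.3% to 36.5% for Neto1. For Neto2 it went from 1.18% to 2.21%. Among all 9648 protein-coding genes with such a share, 71.7% had a lower one in replicate 2, so the direction is that of most genes. In the second quantification it was lower for Grik1 and Grik5, at 23.2% and 13.8% and at 28.9% and 20.9%, and not for Grik2 or Neto2, against 69.2% of genes.

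Between the 2 libraries the 7 genes moved little, and Grik5 differed most. Its ratio of replicate 2 to replicate 1 was 0.799 in TPM, with a 95% counting interval of 0.777 to 0.823. It was the single member at least 20% lower in replicate 2, the level used here, with 25% higher as its counterpart, and it passed narrowly. Genes whose expected counts summed to 200 or more numbered 12962, of which 13.1% were that much lower in replicate 2 and 2.38% that much higher. Members numbered 1 lower of 7 and 0 higher, a share near that background. The other ratios were 0.860 for Grik1 (0.758 to 0.977), 0.905 for Grik2, 0.929 for Neto1, 0.945 for Grik4, 0.972 for Neto2 and 1.00 for Grik3 (0.943 to 1.06). With 1 library against 1, these compare libraries and allow no test between conditions, and the intervals cover counting error only.

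The Grik5 call depended on the scaling. Its expected counts were 1.02 times higher in replicate 2, where the whole library had 1.18 times the counts. With TMM factors its ratio was 0.870 and no member passed, against 5.78% of genes lower and 3.30% higher. It was 0.826 both over nuclear protein-coding TPM, where 9.96% of genes were lower, and in the second quantification, where 14.7% were. Spike-in scaling, which lowered the median of all genes from -0.07 to -0.17 on the log2 scale, gave 0.760 and passed, as did 20% of genes. Relative to the median gene, Grik5 lay at -0.25 to -0.23 on the log2 scale under all 6 scalings plotted. Neto1 lay below 1 in the first quantification and at 1.07 in the second, and Grik3 lay at 1.00 to 1.06 except under spike-in scaling, at 0.930.

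**Figure D5:**
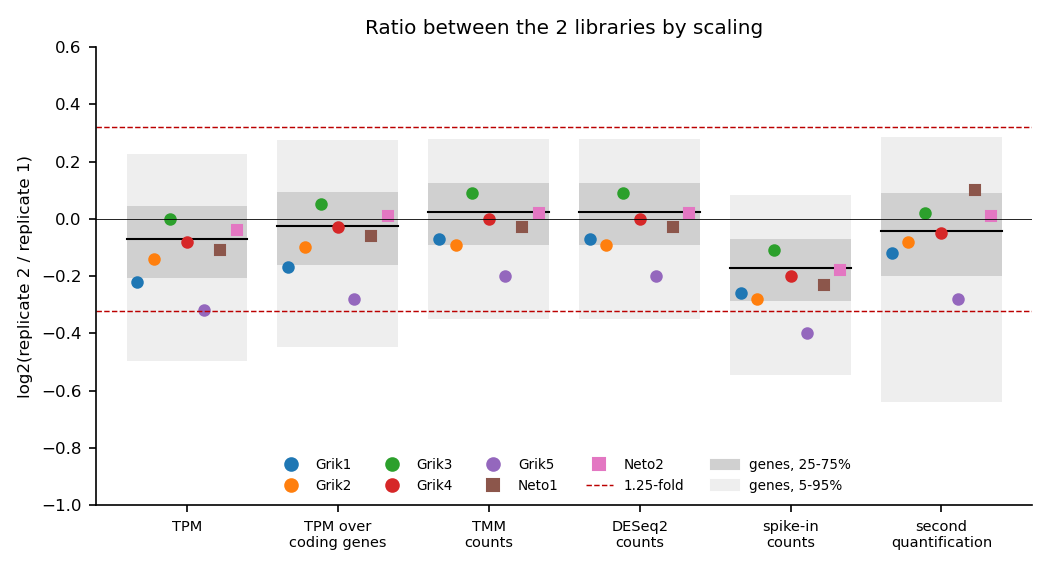
Log2 ratio of replicate 2 to replicate 1 for each gene under 6 scalings; circles are subunit genes and squares Neto genes, grey bands the central 50% and 90% of genes with at least 200 counts, black lines their median and dashed lines the call levels (20% lower, 25% higher). Grik5 is lowest in every column and passes the lower dashed line under TPM (0.799-fold) and spike-in scaling (0.760-fold) only.

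Genes known to act with kainate receptors were present throughout. All 37 partners analysed here had at least 1 TPM in both libraries. Nsf, an ATPase of membrane fusion, at 499 ± 9.41 TPM and Dlg4, encoding the scaffold PSD-95 that binds GluK2, at 364 ± 22.8 led the scaffold and trafficking genes. Among turnover genes Cul3, a ubiquitin ligase scaffold, was at 54.2 ± 5.11 TPM and Klhl24, encoding a protein that binds GluK2, at 32.98 ± 0.170. Among synapse organisers Ctnnb1, beta-catenin, was at 249 ± 19.2 TPM and Nrxn2, a neurexin, at 180 ± 22.4. The editing enzymes Adarb1 and Adar, which recode kainate receptor RNA, were at 45.9 ± 5.97 and 45.9 ± 5.39 TPM, indistinguishable by their SDs. Of kinases that phosphorylate the receptor, Camk2a was highest at 1463 ± 161 TPM, followed by Camk2b at 493 ± 41.7. The calcineurin genes Ppp3ca and Ppp3cb stood at 533 ± 34.5 and 133 ± 2.40 TPM.

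By the same rule 2 partners were lower in replicate 2 and 0 were higher, against 13.1% and 2.38% of all genes. They were Nrxn3, a neurexin, at 83.0 and 59.8 TPM, and Adarb2, a brain relative of the editing enzymes without known editing activity, at 15.6 and 11.9. The median log2 ratio of the 37 was -0.11, beside -0.07 for all genes. With TMM scaling 0 partners passed in either direction.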

How the data were processed

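Stranded, ribosomal-RNA-reduced total RNA libraries of 1 group (n = 2) were analysed on mm10 with GENCODE M21, per the labels and the deposited notes. The aligner is not given in the sources used here. The first quantification is the pair of deposited RSEM-format tables: expected counts, TPM, the percent of its gene's TPM per transcript, and the bounds of a TPM credibility interval (a signal column per the file headers). The second is a deposited kallisto-format transcript table of estimated counts and TPM, summed per gene here. Per the deposited notes it was made from reads and the first from transcriptome alignments.

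Levels are deposited TPM, mean ± SD. Ratios were taken where expected counts summed to 200 or more, with a floor of 3 counts and exact Clopper-Pearson 95% counting intervals scaled to the TPM ratio. Members and lists were chosen with earlier results of these data known. The naming rule took all 7 genes, transcripts with at least 5% of their gene's TPM in both libraries of either quantification and leading transcripts, the 2 highest partners per role plus those at least 20% lower or 25% higher in replicate 2, and the highest gene of each other receptor family. Genes named for lying within a member were chosen after their values were seen. Of 38 partners looked for 37 were found. Some genes of the receptor and partner lists are not reported here and entered no sum or count.

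Alternatives were the second quantification, each replicate alone, TPM over nuclear protein-coding genes, TMM (edgeR 4.0.16) and DESeq2 1.42.0 factors from expected counts, spike-ins, and other thresholds and filters. Counts were rounded to whole numbers for the DESeq2 factors only. Sequences came from GENCODE M21 transcripts and RefSeq promoters; identities from global alignment with Biopython 1.88. Software was R 4.3.3, scipy 1.17.1, matplotlib 3.10.9, numpy 2.4.6, pandas 2.3.3 and Python 3.11.15. No p-values are given, since 1 group allows no test.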

Additional observations from a re-analysis of the deposited data

How the results depend on the processing

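The kainate share of ionotropic receptor TPM, 13.4%, was 13.8% in the second quantification, 13.6% without Grid1 and 8.32% by expected counts; each replicate alone gave 13.3% to 13.5%, and leaving out Grin3b, under 1 TPM, changed nothing at this precision. The single member called between the libraries became 0 over nuclear protein-coding TPM, with TMM, with DESeq2 factors, on log2(TPM + 1), in the second quantification, and at 1.5-fold and 2-fold. It remained 1 with spike-ins, with a minimum of 20 counts and with none. Under those lower minimums 24.0% and 29.2% of all genes were called lower, against 13.1% in the main setting. The unchanged count of 1 therefore does not set the members apart from other genes. At 1.5-fold and 2-fold, 3.33% and 0.725% of all genes were called lower. Leading transcripts with at least 50% numbered 6, and 3 at a 60% threshold. That count was 6 at 40%, by expected counts and among coding transcripts alone, and 5 to 6 for single replicates, where Grik1-201 missed 50% in replicate 1. The median coding share over the 7 genes was 87.0% (85.6% to 88.5% for single replicates) and 98.6% in the second quantification, where Neto1-203 was listed at 0. Partners called lower in replicate 2 numbered 2, but 0 with TMM and with DESeq2 factors and 6 with spike-ins, settings chosen for partners after seeing the data. The causes were not tested. Shares of Grik1 transcripts, Grik2-206, Neto1-202 and Neto1-203 rest on few counts.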
